A study of Mus musculus with 14 samples.

Results

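The conjugating enzymes of the Ugt, Sult and Gst families were followed at the RNA level in mouse liver across 3 Pkd1 genotypes. Genes of the named Ugt1 to Ugt3, Sult and alpha, kappa, mu, omega, pi, theta and zeta Gst classes were taken where their mean over the 14 libraries reached 0.5 CPM (estimated counts scaled to a common library size, so that libraries of different depth can be compared), with pseudogene names and Gstp3 left out. This gave 44 of the 64 matching names among 57180 genes, made up of 19 Ugt, 6 Sult and 19 Gst genes, and all 44 passed the filter on low counts. Just inside the level limit was Gsta1 at a mean of 0.778 CPM, and just outside were Sult1e1 at 0.276 and Sult2a7 at 0.23 CPM. The animals were littermates on normal chow, which the labels class as WT Cre (6 mice), Pkd1 Het Cre (4 mice) and Pkd1 Homo Cre (4 mice), so the controls carried the Cre label too. The promoter that drives Cre, the Pkd1 allele, the age, the sex and the litter of each mouse are not in the labels.

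Phase II enzymes attach a polar group to bilirubin, steroids, bile acids, drugs and reactive products, which makes them easier to excrete. UDP-glucuronosyltransferases (Ugt) sit in the endoplasmic reticulum and transfer a sugar acid from UDP-glucuronate, cytosolic sulfotransferases (Sult) transfer sulfate from the donor PAPS, and glutathione transferases (Gst) join glutathione to electrophiles. The Ugt1a enzymes are made from a locus in which alternative first exons are joined to a common set of later exons. In liver these genes are known targets of the nuclear receptors CAR and PXR, of the aryl hydrocarbon receptor and of NRF2.

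Libraries held between 18573739 and 40925973 estimated counts, and the members took between 0.658% and 0.769% of them. Pkd1 itself stood between 31.4 and 37.7 CPM in WT, at 31.6, 28.1, 32.6 and 36.7 CPM in Het and at 23.1, 26.1, 25.5 and 26.4 CPM in Homo, and was lower in Homo than in WT (0.728-fold, 95% interval 0.646 to 0.819, edgeR quasi-likelihood test, adjusted p = 0.0246), so RNA counted to the gene remained in every Homo liver. All 10 hepatocyte markers were detected, and their summed level ran from 63478 to 82251 CPM in WT, 61323 to 74928 in Het and 59346 to 89352 in Homo. Summed Kupffer cell markers (10 genes) ran from 255 to 299, 255 to 314 and 295 to 318 CPM, and summed lymphocyte markers (10 genes) from 11.9 to 21.7, 20.9 to 22.7 and 23.5 to 29.97 CPM, in the same order. The lymphocyte sum rested largely on Cd3e, which ran from 3.93 to 14.2 CPM in WT, 15.5 to 18.8 in Het and 15.5 to 23.3 in Homo. The T cell markers Cd3d and Cd8a stayed at or under 0.330 and 0.415 CPM in every liver. No marker of these 3 lists was at 0 in every library, and the part of other cell types in the members' levels was not tested. Summed cholangiocyte markers (10 genes) ran from 41.8 to 60.3 CPM in WT, 43.9 to 59.7 in Het and 42.0 to 89.0 in Homo. The highest sum, in Homo 2, rested largely on Spp1 at 57.7 CPM. Summed stellate cell markers (10 genes) ran from 331 to 415, 337 to 455 and 372 to 402 CPM. Of these, 3 lay wholly above WT in Het (113 of 16201 genes did) and 0 were called. In whole tissue, fewer cells of a type and less RNA per cell cannot be told apart.

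Promoter sequences (RefSeq, build GRCm38.p6, a different build from that of the counts) were at hand for 40 of the 44 members. Gstp1 and Gstp2 are shown because they carry the same 30 bases upstream of their RefSeq start sites while their RNA levels lie far apart, and Ugt1a1 and Ugt1a8 because they are the first exons with the highest level of the Ugt1a locus and with one of the lowest. Capitals mark the AP-1 motif TGAGTCA in the Gstp pair and, in Ugt1a1, the HNF1 half-site GTTAAT read on the opposite strand; the Ugt1a8 stretch holds no match to it. The Gstp1 stretch lies at chr19:4037969-4037998 (minus strand, 86 to 57 bases before the RefSeq start site) and the Gstp2 stretch at chr19:4042293-4042322 (minus strand, 101 to 72 bases before). The GENCODE M21 gene models (build GRCm38) begin at 4037985 for Gstp1, inside its stretch, and at 4046023 for Gstp2, upstream of its stretch. For this pair the distances hold for the RefSeq start sites only. Those of Ugt1a1 (chr1:88211859-88211943) and Ugt1a8 (chr1:88087728-88087812) lie on the plus strand, 100 to 16 bases before the start site, and aligned with 41.6% identity.
Gstp1: tctccaacgtgtTGAGTCAgcatccggggc
Gstp2: tctccaacgtgtTGAGTCAgcatccggggc
Ugt1a1: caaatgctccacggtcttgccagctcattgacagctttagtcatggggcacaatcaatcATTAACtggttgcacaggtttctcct
Ugt1a8: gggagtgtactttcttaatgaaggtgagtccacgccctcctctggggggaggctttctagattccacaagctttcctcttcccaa

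The 2 Gstp stretches matched at 30 of 30 bases. Over all members with a promoter, TGAGTCA on either strand of the 250 bases before the start was found in 4 of 40 (10%: Gstm5, Gstp1, Gstp2 and Ugt2b37), against 4.46% of 32851 promoters. GTTAAT was found in 9 of 40 (22.5%), against 6.43% of all promoters, and these were Gsta3, Sult1a1, Sult1d1, Ugt1a1, Ugt1a10, Ugt1a6a, Ugt1a9, Ugt2a3 and Ugt3a1. Ugt1a10 has the match although its level (1.56 CPM per kb of the longest transcript) is under that of Ugt1a8 (1.62). Ugt1a7c, at 36.98 CPM per kb, has no match. A relation between this motif and the level was not tested. The NRF2 core TGACNNNGC was present in Gsta3, Gstm5 and Gstm7 (7.5%, against 10.2%), and the aryl hydrocarbon receptor core GCGTG in 8 members (20%, against 28.2%). A member counted once if any of its listed promoters matched, while the share of all promoters counted each promoter separately. The 2 percentages are therefore not in the same unit, and related members such as Gstp1 and Gstp2 are not separate finds. These are matches of letters, not measured binding sites, and no overlap between motifs was removed.

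Pkd1 genotype left no called difference in any of the 44 genes. With edgeR's quasi-likelihood test, 0 of 44 members passed an adjusted p under 0.05 in Homo against WT, where 0.222% of all 16201 genes tested did, and the smallest adjusted p of a member was 0.966. Het against WT called 0 of 44 (0.0556% of all genes, smallest adjusted p 0.998), and Homo against Het 0 of 44 (0.0309% of all genes, smallest adjusted p 0.916). The trend over WT, Het and Homo also called 0 of 44 (0.185% of all genes, smallest adjusted p 0.832), and DESeq2 called 0 members in the same 4 comparisons. At an unadjusted p under 0.05 there were 4 members in Homo against WT (Gstm7 and Ugt1a6a higher, where 2.64% of all genes were, and Gstk1 and Ugt1a7c lower, where 2.09% were), 1 in Het against WT (Ugt1a7c, lower; 2.31% of all genes) and 2 in Homo against Het (Gstm7 and Ugt1a8, higher; 2.73%). The groups of livers did not overlap for 0 members in Homo against WT (1.15% of all genes), 0 in Het against WT (1.2%) and for Gstm7 alone in Homo against Het (higher; 1.42%). Read against these shares of all genes, the members' counts are not a result about the members.

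The data bounded the differences as well. In Homo against WT the 95% interval of the fold lay inside 2-fold either way for 42 of 44 members (79.8% of all genes) and inside 1.5-fold for 30 (59.8% of all genes). The same counts were 42 and 31 in Het against WT, and 39 and 25 in Homo against Het. Gsta1 and Ugt2b37 reached past 2-fold in all 3 comparisons, and Gstp2, Ugt1a8 and Ugt1a10 in Homo against Het. Folds below 1 were found for 27 of 44 members in Homo against WT (median log2 fold change -0.024, against 49.4% of all genes and a median of 0.002), 27 in Het against WT (median -0.023, 50% of all genes) and 26 in Homo against Het (median -0.046, 49.5%). Scaled by library totals in place of TMM (trimmed mean of M-values), the counts were 20, 29 and 17 of 44, against 37.9%, 56.8% and 33.8% of all genes, so most members had a fold above 1 in the first and the third comparison. Het and Homo were compared with the same 6 WT livers, so the first 2 counts are not independent.

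**Figure D1:**
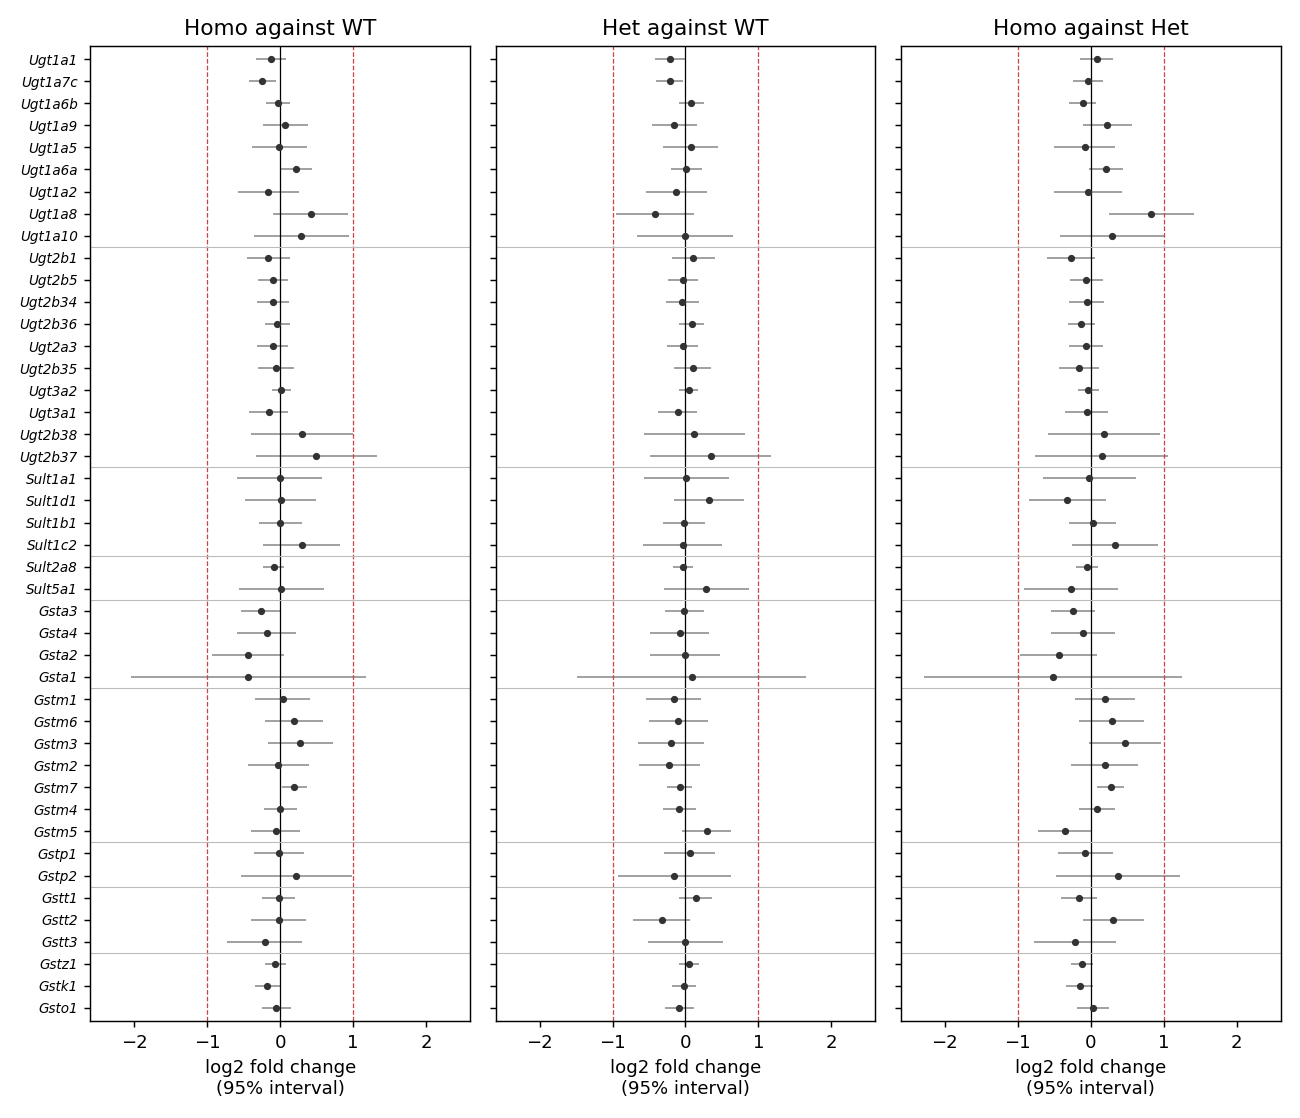
Log2 fold change of each of the 44 members (points) with its 95% interval (bars) in the 3 pairwise comparisons, from edgeR, with dashed lines at 2-fold either way. All points lie within the dashed lines, the point farthest to the right in Homo against Het is Ugt1a8 (1.78-fold), and the widest bars belong to Gsta1 and Ugt2b37.

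Among the 9 Ugt1a genes, 4 had a fold above and 5 a fold below 1 in Homo against WT (median log2 fold change -0.011; 6 above and 3 below with library totals), and 3 and 6 in Het against WT (median -0.125). Ugt1a7c had the smallest unadjusted p of all members against WT. Its 6 WT livers ran from 121 to 154 CPM with a median of 129, the Het livers stood at 106, 124, 119 and 111 and the Homo livers at 131, 103, 102 and 113. Het 2 and Homo 1 lay within the WT range, and the other Het and Homo livers lay under it. The fold was 0.842 in Homo (95% interval 0.741 to 0.958, unadjusted p = 0.0122, adjusted p = 0.966, edgeR) and 0.863 in Het (0.759 to 0.981, adjusted p = 0.998).

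Ugt1a1, the enzyme that conjugates bilirubin, took 44.4% of the summed Ugt1a level. It measured 237 to 325 CPM in WT with a median of 286, 253, 239.8, 274 and 229.9 in Het and 295, 255, 229.6 and 277 in Homo. Het 4 and Homo 3 lay just under the WT range, and the other Het and Homo livers within it. The Het fold was 0.867 (95% interval 0.751 to 1.00, adjusted p = 0.998, edgeR), and the Homo fold 0.919 (0.796 to 1.06). Ugt1a6a, of a class that conjugates small planar phenols, stood at 28.6 to 36.3 CPM in WT (median 30.98), 31.2, 26.3, 36.6 and 32.01 in Het and 32.2, 42.5, 33.3 and 38.4 in Homo. Homo 2 and Homo 4 exceeded every WT liver, and the other Homo livers did not (log2 fold change 0.22 ± 0.0995 (SE), adjusted p = 0.998, edgeR).

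Ugt1a8 was a rare transcript. Its level was 2.37 to 4.66 CPM in WT (median 3.50), 2.25, 2.64, 3.30 and 2.37 in Het and 3.27, 3.76, 7.26 and 4.56 in Homo. Homo 3 was the highest of the 14 livers, and the lowest Homo liver lay just under the highest Het liver. Homo was 1.78-fold of Het (95% interval 1.19 to 2.66, unadjusted p = 0.00813, adjusted p = 0.916, edgeR), with a fold against WT of 1.33 in Homo and 0.75 in Het. Without Homo 3 the log2 fold change against WT was 0.13 in place of 0.42, and that against Het 0.54 in place of 0.83. The other 5 genes of the locus, Ugt1a2, Ugt1a5, Ugt1a6b, Ugt1a9 and Ugt1a10, had mean levels from 3.49 to 86.3 CPM. Summed over the locus, Ugt1a RNA came to 634 ± 54.9 CPM (SD, n = 6) for WT, 579 ± 23.6 (n = 4) in Het and 596 ± 60.1 (n = 4) in Homo.

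Transcripts of the Ugt1a genes share sequence through their common exons. In GENCODE M21 (build GRCm38), between 54.2% and 95.98% of the 50-base windows of each Ugt1a gene also occurred in another gene. The level of a single first exon therefore rests on how the authors' counting divided those reads and is uncertain. The highest share was that of Ugt1a6a, with 94.2% of its windows also in Ugt1a7c. Ugt1a7c had the lowest share, with 53.3% of its windows also in Ugt1a6a. Whether the higher Ugt1a6a and the lower Ugt1a7c level in Homo against WT are separate differences was not tested. Outside Ugt1a, 10 members shared at least 10% of their windows, among them Gsta1 (89.7%, most with the gene model Gm3776), Gstp1 (51.01%) and Gstp2 (50.4%), Gsta2 (47.4%), Ugt2b5 (41.7%) and Ugt2b38 (37.4%). Their single levels carry the same limit. No window was shared by 11 members, including Gsta3, Gstz1, Gstk1, Gstt1 and Ugt2b1.

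The Ugt2 and Ugt3 genes, which conjugate steroids, bile acids and drugs, held most of the Ugt counts. In Homo against WT, 3 of 10 had a fold above and 7 a fold below 1 (median log2 fold change -0.076), and 6 and 4 in Het against WT (median 0.067). Ugt2b1 stood at 384 to 576 CPM in WT (median 449), 417, 479, 561 and 564 in Het and 422, 395, 522 and 336 in Homo. Homo 4 was the lowest of all livers, the other Homo livers lay within the WT range, and the fold against WT was 0.892 (95% interval 0.726 to 1.10, adjusted p = 0.998, edgeR). Ugt2b5 ran from 295 to 456 CPM in WT (median 393) and gave 355, 384, 389 and 407 in Het and 376, 348, 366 and 379 in Homo. All Het and Homo values fell inside the WT range, and the Homo fold was 0.936 (0.812 to 1.08).

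The steadiest member was Ugt3a2, whose family is known to use sugars other than glucuronate. It measured 131 to 154 CPM in WT (median 143), 155, 152, 145 and 140.4 in Het and 153, 150.1, 139 and 136 in Homo, and had the smallest standard error of the 44 genes in Homo against WT (1.01-fold, 95% interval 0.922 to 1.10, edgeR). Ugt2b37 and Ugt2b38 were among the most variable. Ugt2b38 gave 7.58 to 29.4 CPM in WT (median 21.7), 17.7, 23.9, 20.9 and 23.5 in Het and 17.6, 17.9, 43.3 and 18.4 in Homo, so that 3 Homo livers lay close together and Homo 3 stood far above them. Ugt2b37 was low in every group, at 0.965 to 4.78 CPM in WT (median 2.67), 2.46, 4.50, 2.59 and 4.01 in Het and 1.42, 3.92, 4.84 and 4.94 in Homo. WT 2 was the lowest WT liver for both genes, and the interval of the Homo fold of Ugt2b37 spanned 0.797 to 2.50. The remaining members of the group, Ugt2a3, Ugt2b34, Ugt2b35, Ugt2b36 and Ugt3a1, had Homo to WT folds from 0.895 to 0.972.

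Of the 6 Sult genes, 4 had a fold above and 2 a fold below 1 in Homo against WT (median log2 fold change 0.004; 3 and 3 with RLE, relative log expression, scaling, and 5 and 1 with library totals). Sult2a8, which sulfates bile acids, made up 64.3% of the summed Sult level. WT livers ran from 513 to 583 CPM with a median of 531, Het livers stood at 525, 523, 571 and 490.2 and Homo livers at 525, 547, 479.5 and 480.3. Het 4, Homo 3 and Homo 4 lay under the WT range and the others within it, and the Homo fold was 0.94 (95% interval 0.852 to 1.04, adjusted p = 0.998, edgeR). Its relatives were close to absent. Sult2a1, Sult2a2, Sult2a3, Sult2a4 and Sult2a6 had 0 counts in all 14 libraries, where 3 counts would amount to between 0.073 and 0.165 CPM, and Sult2a5, Sult3a1 and Sult3a2 had means of 0.00298, 0.0129 and 0.00228 CPM. These genes are known as female-biased in mouse liver.

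Sult1a1, the main phenol sulfotransferase, had nearly the same mean in the 3 genotypes and a different spread. Its level was 159.9 to 229 CPM in WT (median 179), 166, 155, 222 and 199 in Het and 169, 91.1, 121 and 351 in Homo. Homo 2 and Homo 3 lay under every WT and Het liver, and Homo 4 lay above all of them. The means were 184 ± 25.7 CPM (SD, n = 6) in WT, 185 ± 30.8 (n = 4) in Het and 183 ± 116 (n = 4) in Homo, with a Homo fold of 0.995 (95% interval 0.663 to 1.49, adjusted p = 0.998, edgeR). Sult1d1, which sulfates catecholamines, ran from 50.04 to 101 CPM in WT (median 74.6) and gave 76.8, 72.1, 143 and 90.6 in Het and 62.2, 60.96, 68.5 and 115 in Homo. Het 3 and Homo 4 exceeded the WT range, and the other Het and Homo livers stayed within it (1.25-fold in Het, 95% interval 0.898 to 1.75, adjusted p = 0.998). Without Het 3 the Het log2 fold change of Sult1d1 was 0.07 in place of 0.32. Sult1b1, a thyroid hormone sulfotransferase, averaged 16.7 ± 2.22 CPM over WT livers (SD, n = 6) and 16.7 ± 3.55 over Homo livers (SD, n = 4). Sult1c2, the 1 member on chromosome 17, which also holds Pkd1, and Sult5a1 had means of 2.36 and 7.15 CPM, and Homo folds of 1.22 (0.846 to 1.77) and 1.01 (0.673 to 1.52).

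**Figure D2:**
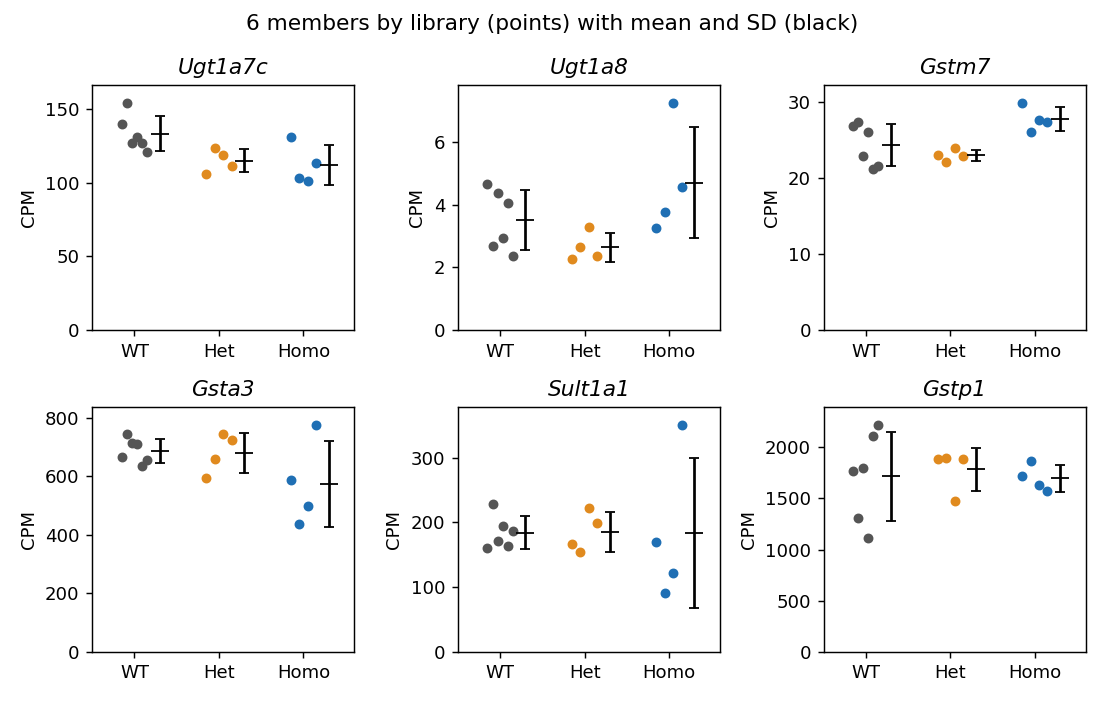
Level in CPM (each axis starts at 0) of Ugt1a7c, Ugt1a8, Gstm7, Gsta3, Sult1a1 and Gstp1 in each of the 6 WT, 4 Het and 4 Homo libraries (coloured points), with the group mean and SD (black). Sult1a1 shows nearly equal means with Homo livers far apart, and in Gstm7 the 4 Homo livers lie above the 4 Het livers and overlap WT.

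All 4 alpha-class Gst genes had a fold below 1 in Homo against WT (median log2 fold change -0.348; 49.4% of all genes had a fold below 1) and 3 of 4 in Het against WT (median -0.008). Gsta3, which detoxifies aflatoxin epoxide in mice, carried 96.1% of the alpha-class counts. It measured 634 to 743 CPM in WT (median 689), 593, 659, 744 and 724 in Het and 586, 437, 497 and 776 in Homo. Homo 1, Homo 2 and Homo 3 lay under every WT liver and Homo 4 above every WT liver, which gave 0.835-fold of WT (95% interval 0.691 to 1.01, unadjusted p = 0.0606, adjusted p = 0.998, edgeR). Without Homo 4 the log2 fold change was -0.44, in place of -0.26, and without Homo 2 it was -0.15, and Gsta3 was not called either way.

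Gsta2 ran from 2.90 to 7.13 CPM in WT (median 5.87), with 5.34, 4.00, 6.77 and 6.12 in Het and 5.25, 3.76, 4.42 and 2.85 in Homo. The Homo livers lay under the WT median, and Homo 4 just under the WT range (0.736-fold, 95% interval 0.525 to 1.03, adjusted p = 0.998, edgeR). Gsta4, which conjugates the lipid peroxidation product 4-hydroxynonenal, gave 15.4 to 28.6 CPM in WT (median 21.4), 22.00, 17.2, 26.4 and 15.9 in Het and 26.9, 17.1, 15.9 and 15.6 in Homo. Homo 1 was high and the other 3 Homo livers lay at the lower end of the WT range (0.879-fold, 0.664 to 1.16). Gsta1 was near its detection limit, at 0.153 to 1.36 CPM in WT (median 0.941), 1.42, 0.728, 0.717 and 0.689 in Het and 1.82, 0.204, 0.34 and 0 in Homo. The value of 0 in Homo 4 is a count of 0, which allows up to 0.165 CPM at that depth (3 counts, counting error only), and the fold could not be bounded within 2-fold.

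The mu-class genes, which act on epoxides and quinones, had a fold above 1 for 5 of 7 in Homo against WT (median log2 fold change 0.032, where 50.6% of all genes had a fold above 1). With RLE scaling 4 of 7 had a fold above 1 in that comparison, and with library totals 6 of 7. In Het against WT 6 of 7 had a fold below 1 (median -0.101). Gstm7 showed the smallest unadjusted p of a member in Homo against Het. It stood at 21.2 to 27.4 CPM in WT (median 24.5), 23.1, 22.1, 23.97 and 22.9 in Het and 29.9, 26.1, 27.7 and 27.4 in Homo. Every Homo liver lay above every Het liver, and the Homo and WT ranges overlapped at their edges. Homo was 1.21-fold of Het (95% interval 1.06 to 1.37, unadjusted p = 0.00729, adjusted p = 0.916, edgeR) and 1.14-fold of WT (1.02 to 1.29, adjusted p = 0.998).

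Gstm1, with 81.9% of the mu-class counts, ran from 576 to 873 CPM in WT (median 754), and gave 656, 531, 742 and 698 in Het and 866, 555, 576 and 1011 in Homo. Homo 4 was the highest and Homo 2 and Homo 3 were near the lowest of the 14 livers, and the Homo fold was 1.02 (95% interval 0.791 to 1.32). Gstm3 was at 25.3 to 37.7 CPM in WT (median 33.2), 34.1, 22.8, 31.3 and 25.03 in Het and 58.4, 21.4, 33.5 and 43.8 in Homo. The Homo livers held both the highest and the lowest value of all (1.39-fold of Het, 95% interval 0.985 to 1.95, adjusted p = 0.965, edgeR), with a log2 fold change of 0.21 without Homo 1 in place of 0.47. Gstm2 showed the same order within Homo, at 44.9, 18.8, 22.3 and 24.98 CPM, against 22.1 to 33.9 in WT (median 28.3) and 24.7, 20.4, 26.4 and 25.9 in Het. For Gstm6 the WT livers gave 36.3 to 58.9 CPM (median 46.1), the Het livers 46.8, 29.9, 49.1 and 50.02 and the Homo livers 66.9, 41.5, 43.2 and 63.2. Homo 1 was the highest liver of all 14 for Gstm2, Gstm3, Gstm4, Gstm6 and Gstm7.

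Gstm5 was the mu-class member with the smallest p in Het against WT. It gave 2.57 to 3.63 CPM in WT (median 3.39), 3.30, 3.68, 4.38 and 4.48 in Het and 3.60, 2.29, 3.21 and 3.29 in Homo. Het 2, Het 3 and Het 4 exceeded the WT range (1.22-fold, 95% interval 0.972 to 1.54, unadjusted p = 0.0815, adjusted p = 0.998, edgeR), and the Homo livers did not.

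The pi class had the most abundant member. Gstp1, known as male-biased in mouse liver, supplied 24.3% of the summed level of all 44 genes. It measured 1115 to 2221 CPM in WT (median 1779), 1886, 1897, 1471 and 1889.9 in Het and 1717, 1869.9, 1633 and 1570.3 in Homo. The WT livers were the most spread of the 3 groups, the Het and Homo values all fell within their range, and the Homo fold was 0.988 (95% interval 0.776 to 1.26, adjusted p = 0.998, edgeR). Gstp2, which carries the same AP-1 stretch, stood at 5.80 to 19.8 CPM in WT (median 9.16), 13.1, 8.19, 7.05 and 9.52 in Het and 5.84, 17.7, 16.1 and 9.44 in Homo. Per kb of the longest transcript Gstp1 reached 2109.5 CPM and Gstp2 13.4 CPM. Gstp3, which the choice of members leaves out, was between 243 and 300.1 CPM in WT 4, Het 3 and Homo 3 and between 5.84 and 12.3 in the other 11 livers.

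The 3 theta-class genes and the 3 genes of the zeta, kappa and omega classes all had a fold below 1 in Homo against WT, with median log2 fold changes of -0.021 and -0.067, but with library totals 2 of the 3 theta-class genes had a fold above 1. Gstz1, an enzyme of tyrosine breakdown, ran from 222 to 268 CPM in WT (median 256), with 254, 254, 272 and 266 in Het and 261, 229, 247 and 227 in Homo. All but the top Het value lay within the WT range (0.954-fold in Homo, 95% interval 0.866 to 1.05). Gstk1, the kappa enzyme of mitochondria and peroxisomes, was at 50.7 to 59.05 CPM in WT (median 52.7), 45.1, 56.00, 59.1 and 52.2 in Het and 51.99, 45.1, 44.7 and 49.5 in Homo. Homo 2, Homo 3 and Homo 4 lay under every WT liver and Homo 1 within the WT range (0.885-fold, 95% interval 0.788 to 0.994, unadjusted p = 0.0406, adjusted p = 0.998, edgeR).

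Among the theta genes, Gstt2 gave 10.8 to 20.4 CPM in WT (median 14.1), 13.8, 12.1, 13.2 and 8.01 in Het and 14.7, 14.6, 13.7 and 15.4 in Homo. Het 4 was the lowest liver of all, and the Homo livers were the tightest of the 3 groups (0.796-fold in Het, 95% interval 0.61 to 1.04, adjusted p = 0.998, edgeR), with a Het log2 fold change of -0.18 without Het 4 in place of -0.33. Gstt1 was at 60.9 to 82.6 CPM in WT (median 68.99), 73.7, 70.7, 86.05 and 79.8 in Het and 73.1, 63.8, 59.7 and 81.4 in Homo, with overlap of all groups. Gsto1 and Gstt3 had Homo folds of 0.964 (0.843 to 1.10) and 0.862 (0.603 to 1.23).

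**Figure D3:**
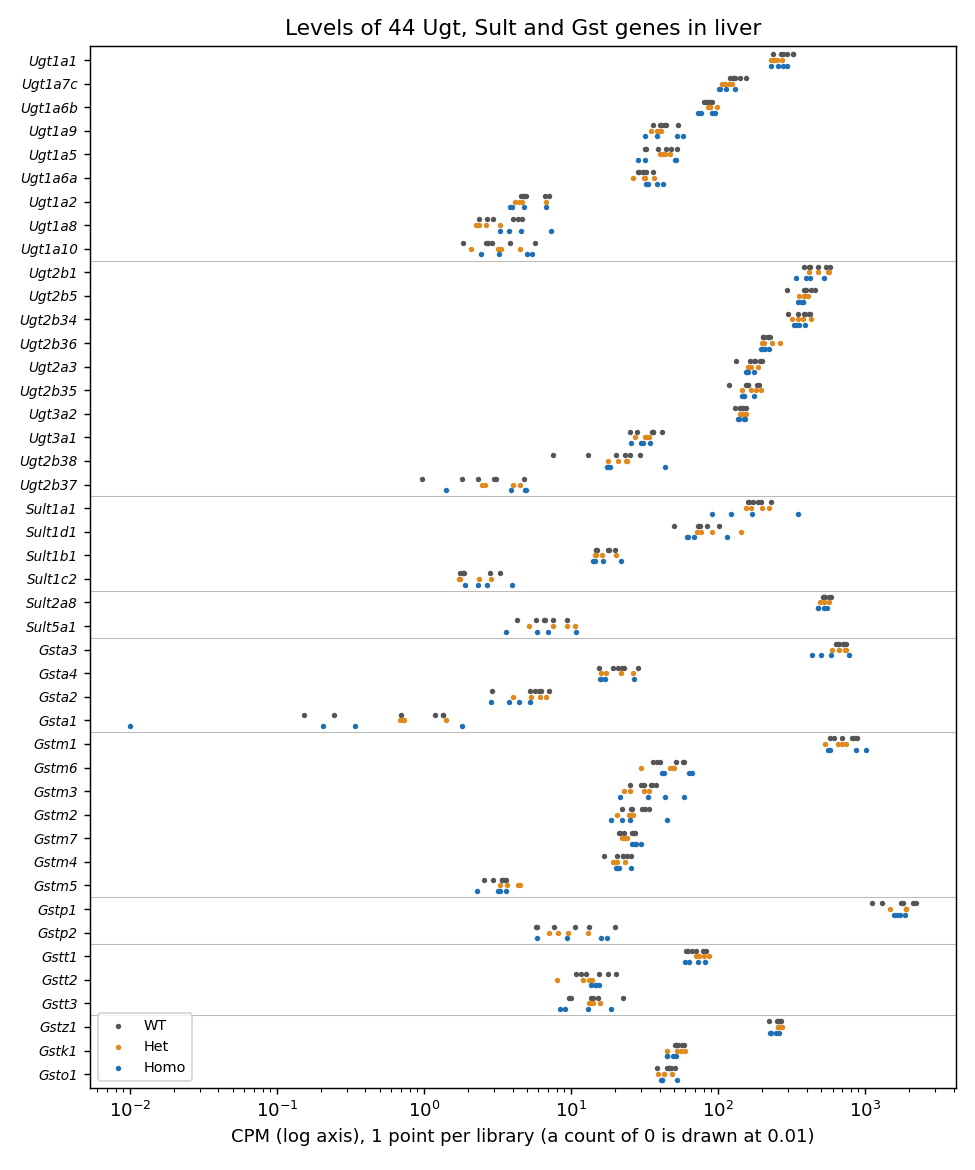
Level in CPM (log axis) of each of the 44 members in every library, with WT, Het and Homo livers as coloured points in 3 rows per gene and lines between gene groups. Gsta1 is lowest and Gstp1 highest, at 1115 CPM and above, and the 3 genotypes overlap for nearly every gene.

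Levels were compared between genes as CPM per kb of the longest annotated transcript (GENCODE M21). On that scale the order was led by Gstp1 (2109.5), Gstm1 (557), Sult2a8 (246), Gsta3 (234), Ugt2b5 (206) and Ugt2b1 (181). Next came Sult1a1 (134), Ugt1a1 (121), Ugt2b36 (113) and Ugt2b34 (85.2). With the median transcript length, 9 of these 10 genes stayed among the first 10. At the other end were Gsta1 (0.889), Sult1c2 (1.28), Ugt1a10 (1.56) and Ugt1a8 (1.62). Neighbours such as Sult2a8 and Gsta3 differ by less on this scale than the choice of transcript length moves either one (516 and 555 CPM per kb with the median length).

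Family sums overlapped between the genotypes. Ugt RNA summed to 2619 ± 157 CPM (SD, n = 6) in WT, 2605 ± 131 (n = 4) in Het and 2459.6 ± 104 (n = 4) in Homo. Sult RNA summed to 827 ± 51.2, 835 ± 88.98 and 794 ± 123 CPM, and Gst RNA to 3789 ± 281, 3764 ± 138 and 3662 ± 343 CPM, in the same order. Over all members the WT livers ran from 6834 to 7628 CPM, the Het livers stood at 6978, 7100.5, 7316 and 7423 and the Homo livers at 7221, 6476, 6543 and 7424. Homo 2 and Homo 3 were the lowest of the 14 livers, and Homo 1 and Homo 4 lay within the WT range. No test was made on these sums.

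**Figure D4:**
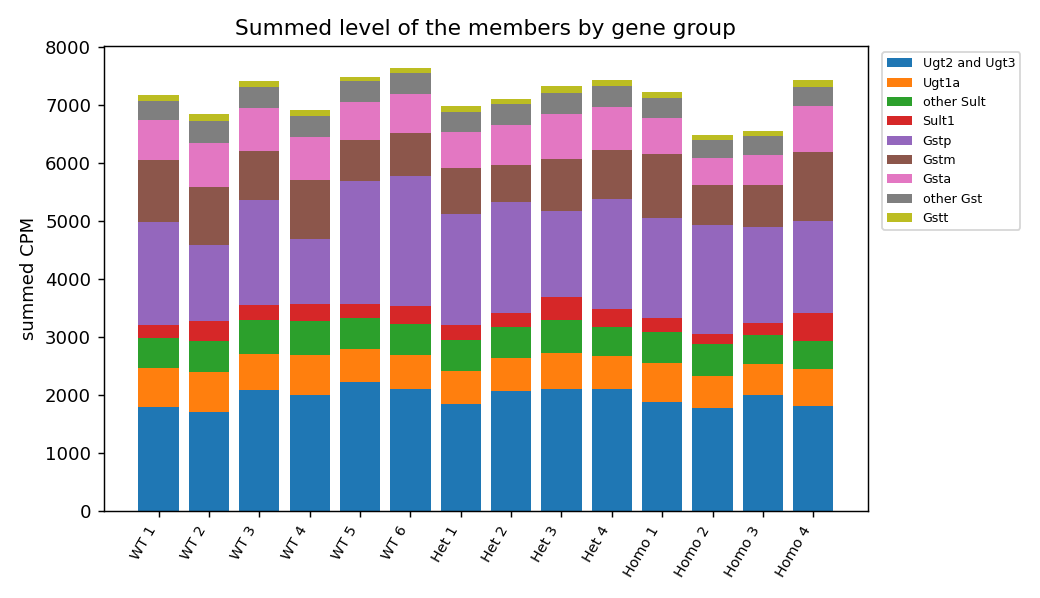
Summed CPM of the members in each library, stacked by gene group (axis from 0). Gstp, nearly all of it Gstp1, is the layer that differs most between WT livers, and the total is lowest in Homo 2 and Homo 3.

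The median spread of the members was largest among Homo livers, and this turned with single livers. The median SD of log2 CPM over the 44 genes was 0.224 among WT, 0.185 among Het and 0.286 among Homo livers, against 0.233, 0.22 and 0.219 over all genes tested. The largest of the 3 SDs was that of Homo for 26 of 44 members, where 32.4% of all genes had it there. The count was 19 without Homo 1, 27 without Homo 2, 26 without Homo 3 and 24 without Homo 4, and the median SD in Homo was 0.203 without Homo 1, 0.308 without Homo 2, 0.204 without Homo 3 and 0.216 without Homo 4, so that without Homo 1, Homo 3 or Homo 4 it lay under the WT value. Homo 1 was the highest of the 14 livers for 8 members (18.2%, against 6.72% of all genes), and Homo 2 the lowest for 10 (22.7%, against 7.30%), among them Gsta3, Gstm2, Gstm3, Sult1a1 and Ugt1a9. The members were measured in the same livers and are not independent, so no test is given for these counts.

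**Figure D5:**
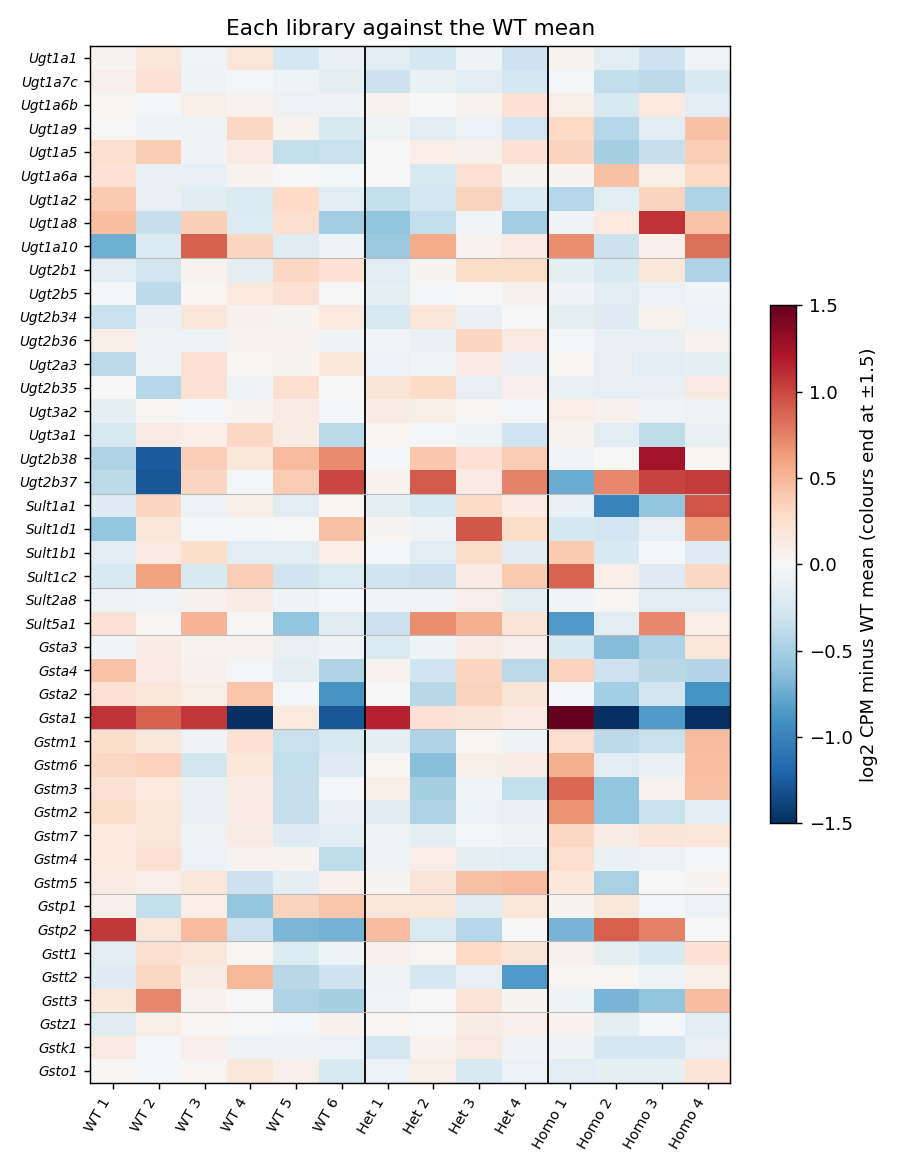
Log2 CPM of each member in each library minus the WT mean of that member (red higher, blue lower, colours end at 1.5 either way), with genes in rows by group and libraries in columns by genotype. Single Homo livers differ from each other in blocks, with most Gstm genes red in Homo 1 and blue in Homo 2, while no gene group has 1 colour over all 4 Homo livers.

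Genes that feed, extend or regulate conjugation gave no called member either, where 0.0309% to 0.222% of all genes were called, depending on the comparison. For the supply of UDP-glucuronate, PAPS and glutathione, 22 of 23 listed genes were tested and 0 were called higher or lower in any comparison (median log2 fold change in Homo against WT -0.00052). The smallest adjusted p belonged to Cbs, which starts the pathway from homocysteine to cysteine and glutathione and lies on chromosome 17. Its level was 130.3 to 169 CPM in WT (median 150.2), 208, 194, 184 and 155 in Het and 192, 224, 197 and 192 in Homo. Every Homo liver lay above every WT liver (1.34-fold, 95% interval 1.17 to 1.52, adjusted p = 0.104, edgeR), and 3 of 4 Het livers did (1.23-fold, adjusted p = 0.765). Over all genes tested, Homo lay wholly above WT for 119 of 16201. Slc35d1, a carrier of UDP-glucuronate into the endoplasmic reticulum, gave 98.8 to 125 CPM in WT (median 119), 123, 124, 109 and 113 in Het and 105, 92.7, 99.7 and 101 in Homo. All Homo livers lay under all Het livers (0.85-fold, adjusted p = 0.916), which was so for 246 of 16201 genes, and their range overlapped that of WT (0.864-fold, adjusted p = 0.893). Ugp2, which makes UDP-glucose, had a Homo fold of 1.01 (0.888 to 1.14) and a Het fold of 0.896 (0.789 to 1.02).

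Of the other conjugating enzymes, 22 of 25 were tested and 0 were called (median -0.043). Baat, which joins bile acids to taurine or glycine, was at 137 to 159 CPM in WT (median 144), 141, 143, 167 and 154 in Het and 133, 123, 129.5 and 134 in Homo, and the Homo livers lay just under all WT and Het livers (0.895-fold of WT, 95% interval 0.812 to 0.986, adjusted p = 0.998, edgeR). Over all 16201 genes tested, Homo lay wholly under WT for 68 and wholly under Het for 246. Ephx2, Acsm1 and Nnmt had Homo folds of 0.85, 1.03 and 0.937 and Het folds of 0.951, 1.10 and 1.42. For the removal of conjugates, 11 of 13 genes were tested and 0 called (median 0.028). Dpep1, a dipeptidase that trims glutathione conjugates, ran from 0.447 to 1.06 CPM in WT and gave 0.594, 0.163, 0.378 and 0.384 over the Homo livers (0.537-fold, 0.327 to 0.882, adjusted p = 0.976). Ggt6, Gusb and Acy1 had Homo folds of 0.794, 1.06 and 1.01 and Het folds of 0.967, 1.14 and 1.11. All 14 transporters of conjugates were tested and 0 were called (median -0.019), with Homo folds of 0.871 for Abcc4, 1.14 for Abcc5, 0.757 for Abcb1a and 1.04 for Slc22a7. The Het folds of the same transporters were 0.723 (unadjusted p = 0.0121, adjusted p = 0.993, edgeR), 1.09, 0.92 and 1.35.

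Of the regulators, 18 of 19 were tested and 0 were called in any comparison (median -0.038 in Homo against WT). Of their indicator genes 14 of 17 were tested and 0 were called. In Homo against WT 12 of these 14 had a fold below 1 (median -0.113, where 49.4% of all genes had a fold below 1). In Het against WT 9 of 14 had a fold above 1 (median 0.038). The list pools targets of several regulators, and their activity was not tested. Nr1i3, which encodes CAR, ran from 96.5 to 171 CPM in WT (median 132), 96.3, 89.8, 174 and 109 in Het and 77.4, 89.2, 115 and 175 in Homo. Nr1i2, which encodes PXR, gave 45.9 to 65.4 CPM in WT (median 52.9), 51.8, 53.95, 68.9 and 53.9 in Het and 42.4, 44.2, 51.2 and 68.1 in Homo. Both were lowest in Homo 1, and Nr1i3 was highest in Homo 4 and Nr1i2 in Het 3. Their target Cyp3a11 had a Homo fold of 0.889 (0.688 to 1.15), and Cyp2b10 stayed between 0.0408 and 0.501 CPM in every liver and was not tested. Ahr was at 45.1 to 76.4 CPM in WT, 53.01, 75.7, 99.6 and 59.1 in Het and 42.6, 43.5, 68.4 and 84.7 in Homo, and its target Cyp1a2 had a Homo fold of 1.03 (0.872 to 1.21).

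Nfe2l2, which encodes NRF2, gave 46.9 to 78.5 CPM in WT (median 50.95), 52.4, 42.4, 43.2 and 39.1 in Het and 59.3, 54.8, 62.96 and 48.3 in Homo. 3 of the Het livers lay under the WT range (0.803-fold, 95% interval 0.656 to 0.982, adjusted p = 0.998, edgeR). Its target Nqo1 was low, at 1.10 to 2.18 CPM in WT, with Homo livers at 1.55, 0.695, 0.831 and 1.59 (0.647-fold, 0.407 to 1.03, adjusted p = 0.998). Txnrd1, another NRF2 target, had a Homo fold of 0.845 (0.73 to 0.977, adjusted p = 0.998). Cux2, known as female-biased in mouse liver, and Esr1, which encodes an oestrogen receptor, were both highest in Homo 4, at 8.67 CPM for Cux2, against 0.319 to 1.10 in WT, and 109.7 CPM for Esr1, against 32.7 to 64.4 in WT. Homo 4 is also the liver with the highest Sult1a1, Gsta3 and Gstm1 and the lowest Ugt2b1, and the part of these regulators in those levels was not tested. Among members listed as sex-biased, Gstp1 (1570.3 CPM), Gstp2 (9.44), Ugt2b38 (18.4), Ugt1a1 (277) and Ugt1a5 (52.1) lay within their WT ranges in Homo 4. Sult2a8, listed as female-biased, lay under its WT range (480.3 CPM). Sult2a1 to Sult2a6, Sult3a1 and Sult3a2 had 0 counts in that liver.

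Members were also counted by 2 lists of genes with a sex bias in mouse liver. On the male-biased list (Gstp1, Gstp2, Ugt2b1 and Ugt2b38) 0 of 4 were called, with 2 folds above and 2 below 1 in Homo against WT. On the female-biased list 3 of 12 had enough counts for the test (Ugt1a1, Ugt1a5 and Sult2a8, whose place on that list is uncertain), 0 were called, and their Homo folds were 0.919, 0.992 and 0.94.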

How the data were processed

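RNA was measured by sequencing in liver of 14 mice. The authors deposited estimated counts per gene, for which the submitters' processing notes name STAR, Salmon and build GRCm39; tool versions, annotation and strand use were not stated there. Between 6.36% and 8.59% of values per library were not whole (tolerance 0.01) and were rounded. No libraries were duplicates (closest pair, WT 4 and Homo 4, chi-square per degree of freedom 26.3). Genes were filtered with filterByExpr (count minimum 10, total minimum 15; 16201 kept), scaled with TMM and fitted over all 14 libraries with edgeR 4.0.16 (quasi-likelihood test, two-sided) in R 4.3.3, with Benjamini-Hochberg adjustment over all genes and calls under 0.05. DESeq2 1.42.0, other scalings, no filter, a replicate block and leaving out each library were alternatives. The fit was checked on simulated counts for Homo against WT. It called 35.8% of changes of 1.5-fold, 70.3% of 2-fold and 92.2% of 4-fold, and 3 unchanged genes. Most changes of 1.5-fold were therefore missed. Log2 CPM used a prior count of 0.5. P-values set each difference against the spread between these mice, which were taken as independent although the labels call them littermates. The members, gene lists, marker lists (also for endothelial, stellate, cholangiocyte, erythroid and zonal hepatocyte genes) and tests were chosen with earlier results of these data known. Described in every liver were the members with the smallest p (8, 8 and 4 in the 3 comparisons), the 2 highest of each gene group and the 3 with the largest SD; from the lists, the receptors, their targets and the 2 with the smallest p against WT. Ugt3a2 and genes named in passing were chosen after their values were seen.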

Additional observations from a re-analysis of the deposited data

Results flagged for a closer look

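In 9 of 132 pairs of a member and a genotype (6.82%), 1 library stood apart from the rest of its group by Dixon's gap rule, which chance meets in about 1 of 20 groups and which 6.26% of such pairs over all genes tested met. In Homo 4 they were Sult1d1 at 115 CPM (the other Homo livers 60.96 to 68.5), Ugt2b35 at 175 (146 to 149) and Gsto1 at 52.6 (40.7 to 41.6). Ugt2b38 stood at 43.3 CPM in Homo 3 (others 17.6 to 18.4), and Gsta4 at 26.9 CPM in Homo 1 (others 15.6 to 17.1). Among Het livers, Het 3 was low for Gstp1 at 1471 CPM (others 1886 to 1897) and high for Ugt1a2 at 6.77 CPM (others 4.17 to 4.61). Het 1 was high for Gsta1 at 1.42 CPM (others 0.689 to 0.728), and Het 2 low for Gstm6 at 29.9 CPM (others 46.8 to 50.02).

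The same rule picked out 7 values of the other named genes. They were Cux2 at 8.67 CPM in Homo 4 (other Homo livers 0.378 to 0.735), Cbs at 224 CPM in Homo 2, Abcc5 at 7.13 CPM in Homo 1 (the lowest of its group) and Nr1i2 at 68.9 CPM in Het 3. Among WT livers they were Nfe2l2 at 78.5 CPM and Ugp2 at 133 CPM (the lowest of its group) in WT 1, and Abcb1a at 5.35 CPM in WT 3.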

How the results depend on the processing

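No member was called in any of the 79 fits counted (smallest adjusted p 0.18). Folds were followed over the refits only for the members named for the smallest p in each pairwise comparison. In 400 of 400 such values none changed direction or crossed the threshold. The folds of members named only for their level or spread were not followed in this way. Family sums moved by less than the spread between livers in 66 of 66 recalculations, most of which left out 1 library. Leaving out 1 library cannot move a group mean by that much, so this count does not show that the sums are steady. With 1 library left out, the log2 ratio of Homo to WT ran from -0.115 to -0.064 for Ugt (-0.09 with all). It ran from -0.169 to -0.001 for Sult (-0.058) and from -0.096 to -0.004 for Gst (-0.049). Counts over all genes did move. DESeq2 called 61 genes in Homo against WT (36 with edgeR), 32 in Het against WT (9), 15 in Homo against Het (5) and 54 in the trend (30). With no filter on low counts 23 genes were called in Het against WT, and with only the 2 groups compared 2 in Homo against Het. Leaving out 1 library gave 23 to 40 calls in Homo against WT (23 without Homo 1) and 19 to 33 in the trend (19 without WT 1 and 19 without WT 6). With library totals in place of TMM scaling, 17 members in place of 26 had a fold below 1 in Homo against Het. The cause of these shifts was not tested.

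Replicate numbers are shared between the genotype labels, but nothing says that a number marks a litter, and deviations of same-numbered livers correlated at -0.0929 to 0.13, so the numbers were not taken as pairs. With the replicate block, 0 members and 19 genes were called in Homo against WT, 2 genes in Homo against Het and 11 in the trend, and a number matched best with its own in 2 of the 12 comparisons of same-numbered livers. Depth limits the members with few counts, such as Gsta1 and Sult1c2.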

Other observations

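After the data were seen, the log2 CPM of each of the 44 members was set against that of Nr1i3, Nr1i2, Ahr and Nfe2l2 over the 14 livers, with deviations from the genotype means and 100000 permutations within genotype. Of the 176 relations, 0 had both adjusted p-values under 0.05. The smallest p of r belonged to the negative relation between Gstp1 and Nr1i3 (Pearson's r = -0.756, permutation p = 0.0002, adjusted p = 0.0352; Spearman's rho = -0.754, permutation p = 0.00457, adjusted p = 0.288), and r was -0.804 without Het 3 and Homo 4, the livers farthest from the median of Nr1i3. The largest r was that of Sult1d1 with Nr1i2 (r = 0.828, permutation p = 0.00298, adjusted p = 0.262; rho = 0.754, permutation p = 0.00468, adjusted p = 0.288), and it was 0.633 without Het 3 and Homo 4.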
